A study of Rattus norvegicus with 12 samples.

Results

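Astrocytes take up glutamate, buffer potassium and water, and are joined by gap junctions into a network. After spinal cord injury they become reactive: they build up intermediate filaments, lose parts of their resting programme and form a border around the lesion. Examined here were 10 genes of this programme, 7 of astrocyte identity (Aqp4, the end-foot water channel; Aldh1l1, a folate enzyme; Slc1a2 and Slc1a3, the glutamate transporters GLT-1 and GLAST; Gja1 and Gjb6, the gap junction proteins connexin 43 and connexin 30; and Fgfr3, a growth factor receptor) and 3 of glial reactivity (Gfap and Vim, which encode intermediate filament proteins, and Lcn2, the secreted siderophore-binding protein lipocalin 2). They were chosen by name and not by a filter on their values, but with earlier results of these data known.

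Of these 10 genes, 6 were found among the 17423 genes of the tables: 3 of the 7 identity genes (Slc1a2, Gja1, Gjb6) and all 3 reactive genes. Aqp4, Aldh1l1, Slc1a3 and Fgfr3 could not be matched to a row and were not analysed here. The tables list genes by RGD number without symbols. Slc1a2 (RGD:3697) was named from a symbol that the study paired with its number, and Gfap by the RGD number given for it. Gja1 (RGD:2690), Gjb6 (RGD:621830), Vim (RGD:621646) and Lcn2 (RGD:69408) were named by their place between named neighbours together with the length of the gene. For these the length in the tables (RN4) and in the current rat genome (GRCr8) was 12448 against 12521 bases for Gja1, 8484 against 8486 for Vim, 3346 against 3420 for Lcn2 and 8778 against 10503 for Gjb6, the pair that differed most. Without the symbols that the study supplied, the row here called Gja1 would have been named Pln and the row called Gjb6 would have had no name, so both names are less sure than those of Vim and Lcn2.

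The tissue was the spinal cord of adult female rats (16 to 18 weeks old) that all received a moderate contusion of 200 kdyn. A segment of 1 mm through the lesion was sequenced from Sprague-Dawley rats (SD, Hsd:SD), which are immunocompetent, and from athymic nude rats (AN, Hsd:RH-rnu/rnu), which are homozygous for rnu and deficient in T cells, at 1 week (acute phase) and 8 weeks (chronic phase) after injury. There were 3 rats in each of the 4 groups. The strains differ in genetic background as well as at rnu, so the effects of background and of rnu cannot be told apart. No uninjured cord was analysed here.

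Expression is given in FPKM, fragments per kilobase of transcript scaled to the fragments mapped. The tables hold 1 FPKM value for each group of 3 rats. No spread between rats can be computed from these values, and the statistics that the authors derived from the separate rats, which the tables also hold, were not used. Every comparison here is therefore a description with no test, and none shows whether a difference, Gfap and Slc1a2 included, was larger than the spread between rats. The number of reads behind each value is unknown. Between 10716 and 11267 genes reached 1 FPKM in a group. The median log2 ratio of AN to SD over all genes was -0.002 acutely and 0.004 chronically. Of the 11 astrocyte markers listed for checking the tissue, 5 were found (Gfap, Slc1a2, Gja1, Gjb6 and Slc39a12), and all 5 had signal. In whole tissue, fewer astrocytes and less RNA per astrocyte cannot be told apart.

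The 250 bases before the transcription start of 3 genes are shown, taken from RefSeq (GRCr8). Gfap and Slc1a2 were the members that were more than 2-fold lower in acute AN cord, and Lcn2 the one more than 2-fold higher in chronic AN cord. Capitals mark any match, on either strand, to 8 motifs: STAT (TTCNNNGAA), NF-kB, SOX (ACAAAG or else ACAATG), E-box (CANNTG), the CCAAT box, the TATA box (TATAAA), AP-1 (TGACTCA or TGAGTCA) and the GC box (GGGCGG).
Gfap (chr10:88361662-88361911, minus strand): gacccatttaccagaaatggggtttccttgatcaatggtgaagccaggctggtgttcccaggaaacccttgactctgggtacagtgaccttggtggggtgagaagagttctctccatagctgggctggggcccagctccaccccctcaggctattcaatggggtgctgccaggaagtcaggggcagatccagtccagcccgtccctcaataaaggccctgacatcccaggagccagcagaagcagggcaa
Slc1a2 (chr3:109459859-109460108, plus strand, the first of 2 annotated starts): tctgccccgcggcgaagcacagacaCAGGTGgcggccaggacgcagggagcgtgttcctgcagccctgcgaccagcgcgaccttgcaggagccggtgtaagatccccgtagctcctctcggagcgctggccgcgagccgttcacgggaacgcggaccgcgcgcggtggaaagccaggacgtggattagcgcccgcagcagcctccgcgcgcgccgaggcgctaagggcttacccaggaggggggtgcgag
Lcn2 (chr3:36081781-36082030, minus strand): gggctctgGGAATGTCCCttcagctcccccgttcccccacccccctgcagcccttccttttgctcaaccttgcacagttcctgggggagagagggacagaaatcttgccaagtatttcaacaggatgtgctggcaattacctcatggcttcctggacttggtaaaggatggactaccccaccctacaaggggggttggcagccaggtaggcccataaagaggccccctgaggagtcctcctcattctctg
The Gfap window held none of the 8 motifs, the Slc1a2 window 1 E-box and the Lcn2 window 1 NF-kB match. Over the 6 members, counting 1 window each, STAT and SOX were matched in 0, E-box in 3, NF-kB and the GC box in 2 each, and the CCAAT box, the TATA box and AP-1 in 1 each. Among 33469 rat promoters of the same length the shares with a match were 7.67% for STAT, 6.33% for NF-kB, 25.3% for SOX, 65.5% for E-box, 34% for the CCAAT box, 12.9% for the TATA box, 4.05% for AP-1 and 30.5% for the GC box. The motifs were not fixed before the members' values were known, and a match describes letters and not a binding site.

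In the acute phase, 2 of the 6 members were at least 2-fold lower in AN rats and 0 were at least 2-fold higher. Over all 11326 genes compared, 11.4% were at least 2-fold lower and 2.07% at least 2-fold higher. The median log2 ratio of the 6 members was -0.47. The log2 ratios of the single members ran from -1.69 (Slc1a2) and -1.48 (Gfap) through -0.58 (Lcn2) and -0.36 (Gjb6) to 0.12 (Gja1 and Vim).

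**Figure D1:**
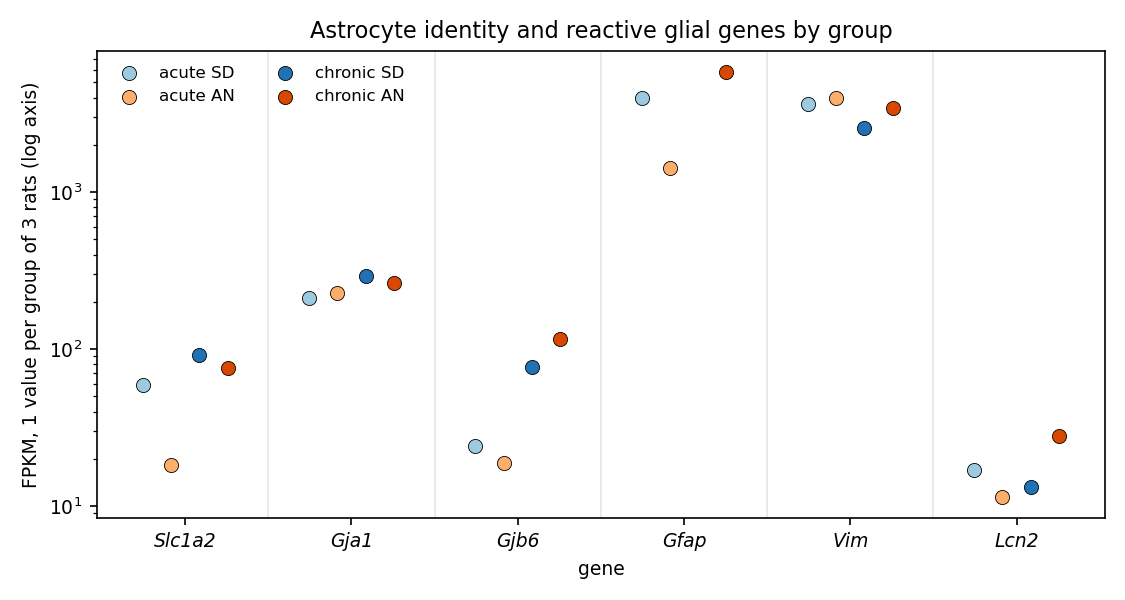
FPKM (log axis) of the 6 members in the 4 groups, 1 point per group of 3 rats. Gfap, Slc1a2, Gjb6 and Lcn2 have their lowest points in acute AN cord, and Gja1 and Vim differ little between groups. The point of Gfap in chronic SD cord is missing because its estimate failed.

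Slc1a2 (RN4 chr3:87870558-87992401) encodes the transporter that clears most synaptic glutamate. At 1 week its level was 59.5 FPKM in SD and 18.4 FPKM in AN rats, and at 8 weeks 91.1 and 75.8 FPKM. The acute AN group stood apart as the lowest of the 4. The acute level was 3.23-fold higher in SD than in AN rats (log2 ratio of AN to SD -1.69), and 5.43% of all genes had a lower acute ratio. In the chronic phase the log2 ratio was -0.27, so most of the acute gap was not seen at 8 weeks.

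Gfap (RN4 chr10:92059881-92068555), the filament gene most used to mark astrocytes, was among the most abundant transcripts of the injured cord. At 1 week its level was 3957 FPKM in SD and 1424 FPKM in AN rats, and at 8 weeks it was 5824 FPKM in AN rats. The chronic SD value is a failed estimate that the table lists at 0, so Gfap has no chronic strain ratio. Gfap ranked 9th of all genes in acute SD cord, 45th in acute AN cord and 7th in chronic AN cord. The acute level was 2.78-fold higher in SD rats (log2 ratio -1.48), and the FPKM values alone do not show whether this exceeded the spread between rats. The neighbouring gene FAM187A, 558 bases away, was listed at 14.1 and 2.72 FPKM in acute SD and AN cord.

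Vim, the other filament gene, behaved differently from Gfap. It lies at RN4 chr17:87847280-87855763 and is also expressed by fibroblasts, endothelium, macrophages and immature glia. At 1 week its level was 3657 FPKM in SD and 3968 FPKM in AN rats, and at 8 weeks 2543 and 3413 FPKM. The log2 ratio of AN to SD was 0.12 at 1 week and 0.42 at 8 weeks. The balance of the 2 filament genes therefore differed between groups: Vim stood at 0.924 times the Gfap level in acute SD, 2.79 times in acute AN and 0.586 times in chronic AN cord.

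The gap junction genes were less affected in the acute phase. Gja1 (RN4 chr20:35409815-35422262) was at 210.2 and 229 FPKM in SD and AN rats at 1 week and at 293 and 265 FPKM at 8 weeks, with log2 ratios of 0.12 and -0.15. All 4 groups lay close together. Gjb6 (RN4 chr15:36177736-36186513), which is restricted to more mature astrocytes, was at 24.3 and 18.9 FPKM in SD and AN rats at 1 week and at 77.3 and 116 FPKM at 8 weeks. Both chronic groups were above both acute groups, with log2 strain ratios of -0.36 at 1 week and 0.58 at 8 weeks. The level of Gja1 relative to Gjb6 was 8.66 in acute SD and 12.1 in acute AN cord, against 3.79 and 2.29 in chronic SD and AN cord.

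Lcn2 (RN4 chr3:11511402-11514747) is induced in reactive astrocytes and is also a granule protein of neutrophils. At 1 week its level was 17.1 FPKM in SD and 11.5 FPKM in AN rats, and at 8 weeks 13.2 and 27.9 FPKM. The chronic AN group was the highest of the 4. The log2 ratio of AN to SD was -0.58 at 1 week and 1.08 at 8 weeks, a 2.11-fold higher level in chronic AN cord, and 98.1% of all genes had a lower chronic ratio. The summed level of the 7 neutrophil markers found of 10 was 82.9, 103, 30.8 and 43.3 FPKM in acute SD, acute AN, chronic SD and chronic AN cord, with none at 0. Their log2 ratios were mixed, with medians over 5 genes of -0.29 at 1 week and 0.85 at 8 weeks. At 1 week 3 of the 5 were below 0. At 8 weeks 4 of the 5 were above 0, the largest being Mmp8 (2.27 against 13.1 FPKM, 2.53). Several of these genes were near the minimum (Ngp passed it at 1 week only through SD cord). A minimum of 5 FPKM left S100a9, Mmp8 and Csf3r, with medians of 0.50 and 0.03, so no shared direction with Lcn2 can be read. Their part in the Lcn2 values was not tested.

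In the chronic phase 0 of the 5 members with a ratio were at least 2-fold lower in AN rats and 1, Lcn2, was at least 2-fold higher. Over all 11429 genes, 6.33% were at least 2-fold lower and 2.27% at least 2-fold higher. The median of the 5 members was 0.42.

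**Figure D2:**
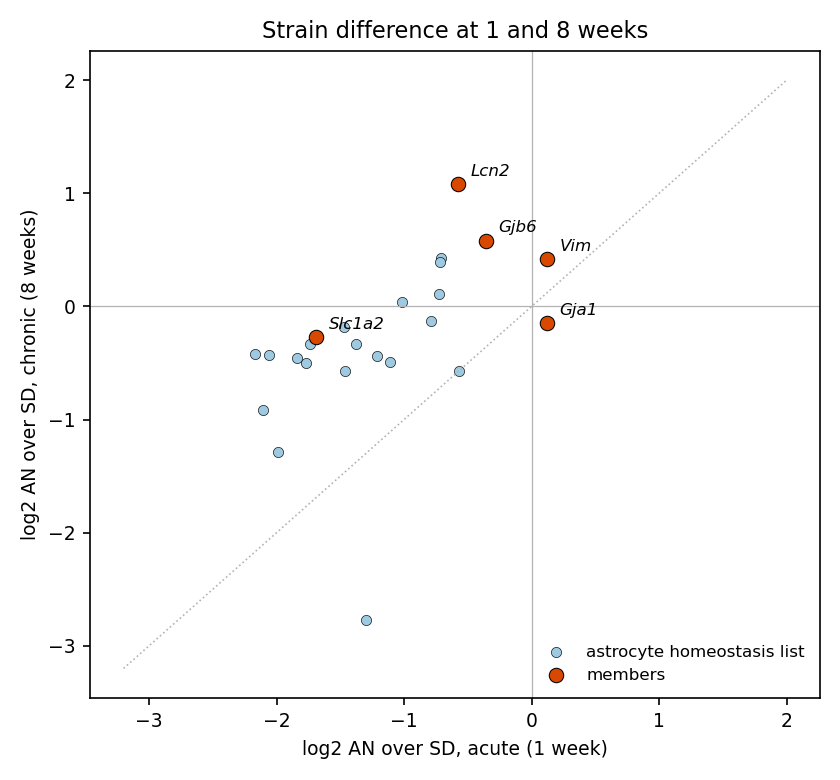
The log2 ratio of AN to SD in the acute phase (horizontal) against the chronic phase (vertical), for the 5 members with both values and the genes of the astrocyte homeostasis list. The dotted line marks equal ratios, and Slc1a2, Gjb6, Vim and Lcn2 lie above it while Gja1 lies below.

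The acute minus the chronic log2 ratio shows how far the strain difference moved between phases. It was -1.65 for Lcn2, -1.43 for Slc1a2, -0.94 for Gjb6, -0.31 for Vim and 0.27 for Gja1. Over all 11108 genes with both ratios the median was -0.043, with quartiles of -0.32 and 0.17. Only 1.39% of these genes had a lower value than Lcn2 and 2.15% a lower one than Slc1a2, whereas Vim lay within the quartiles.

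Within each strain, the 8-week level was set beside the 1-week level. The tables were normalized separately, so these ratios are descriptive, and the median over all genes was 0.012 (log2) in SD and 0.029 in AN rats. Slc1a2 was 1.53-fold higher at 8 weeks in SD and 4.11-fold higher in AN rats. Gjb6 was 3.18-fold and 6.12-fold higher. Both thus stood higher at 8 weeks in each strain, by a larger factor in AN rats. Gfap was 4.09-fold higher at 8 weeks in AN rats and has no value in SD rats. Lcn2 went in opposite directions, with a log2 ratio of -0.37 in SD and 1.28 in AN rats. Vim was lower at 8 weeks in both strains, with log2 ratios of -0.52 and -0.22, and Gja1 was slightly higher, at 0.48 and 0.21.

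**Figure D3:**
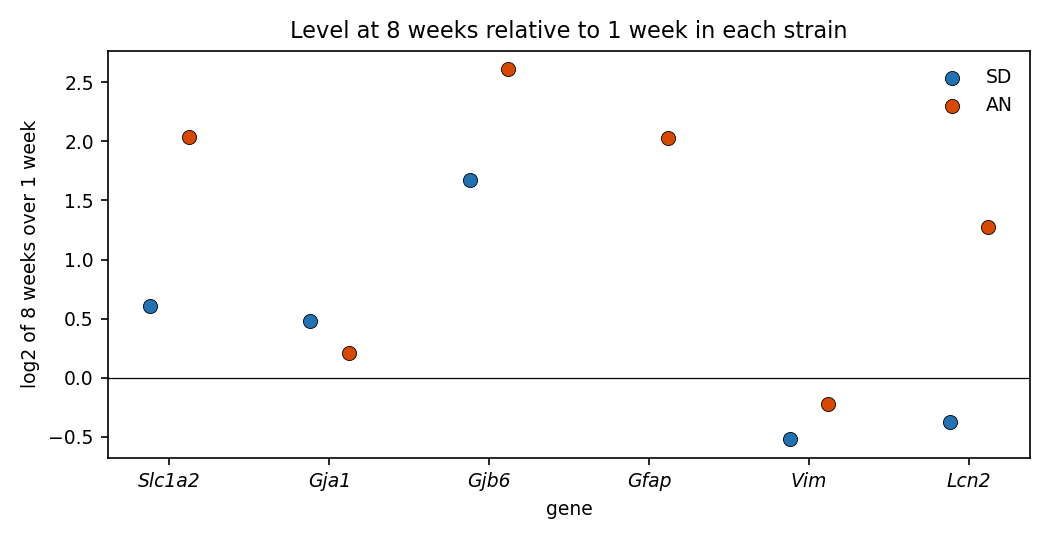
The log2 ratio of the 8-week to the 1-week FPKM of each member in SD and AN rats, 1 point per strain. Slc1a2 and Gjb6 lie above 0 in both strains and higher in AN rats, Vim lies below 0 in both, and Lcn2 lies below 0 in SD and above 0 in AN rats.

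Other genes of astrocyte homeostasis were lower in acute AN cord. Of a list of 29 such genes, 20 were found, and 14 of these 20 were at least 2-fold lower in acute AN rats against 1 at least 2-fold higher, with a median log2 ratio of -1.34, while 11.4% of all genes were lower. The 1 higher gene, Dio2, passed the minimum only through AN cord. The count of lower genes leans towards change. Of the 14, 12 carry names taken from a table that holds only genes the study called changed in the acute phase. With every name found anew without that table, 11 of 17 were at least 2-fold lower (median -1.21). Leaving out the genes it named, 2 of the remaining 7 were.

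The largest acute differences were in Agt, which encodes angiotensinogen (157 against 35 FPKM in SD and AN cord, log2 ratio -2.17), Mt3, a metallothionein (1349.8 against 314, -2.11) and Slc25a18, a mitochondrial glutamate carrier (11.2 against 2.7, -2.06). In the chronic phase 2 of 19 genes were at least 2-fold lower and 0 higher, with a median of -0.43. Over all genes 6.33% were lower and 2.27% higher, so these counts are not far from those shares. The 2 lower genes were Slc39a12, a zinc transporter (22.3 against 3.27 FPKM, -2.77), and Slc6a11, the GABA transporter GAT-3 (19.6 against 8.02, -1.29). Both carry symbols that the study supplied for genes it called changed in the acute phase. Slc39a12 differed more between strains at 8 weeks than at 1 week, unlike Slc1a2.

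Genes of the reactive programme gave mixed values. Of 14 pan-reactive genes 8 were found, and 2 were at least 2-fold lower in acute AN cord with 0 higher (median 0.24), against 11.4% lower and 2.07% higher over all genes. With 8 genes, such counts are not far from those shares. The 2 were Serpina3n, a protease inhibitor (12.5 against 2.53 FPKM, log2 ratio -2.31), and Cxcl10, an interferon-induced chemokine (36.6 against 13, -1.50). In the chronic phase, against 6.33% lower and 2.27% higher over all genes, 1 was lower, again Serpina3n (-1.13), and 2 were higher, Steap4 (10.9 against 25.9 FPKM, 1.25) and Aspg (32.7 against 69.4, 1.09). Steap4 encodes a metalloreductase. Of the genes proposed to mark the A1 and A2 reactive states, 5 of 10 and 6 of 12 were found, with acute medians of 0.13 and 0.48 and chronic medians of 0.11 and -0.03. Acutely 2 of the 6 A2 genes were at least 2-fold higher in AN cord, Cd14 (48.1 against 108 FPKM) and Tgm1. Cd14 is also among the macrophage markers that the study lists, and Tgm1 passed the minimum only through AN cord. With a minimum of 5 FPKM the acute A2 median was 0.06. Of 9 scar proteoglycan genes 8 were found, and the 7 with an acute and 6 with a chronic ratio had medians of -0.41 and -0.17, respectively. The 1 gene at least 2-fold higher in acute AN cord was Acan (aggrecan), at the low levels of 0.629 and 1.32 FPKM in SD and AN rats (log2 ratio 1.07). Among those at 1 FPKM or more in both strains the largest absolute acute log2 ratio was that of Bcan (brevican), at 167 and 89 FPKM (-0.91).

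Relatives of the members help to place them. Of 14 connexin, glutamate transporter and aquaporin genes, members included, 9 were found. Acutely 4 were at least 2-fold lower in AN cord and 0 higher, against 11.4% and 2.07% of all genes. Among the lower were Aqp9, an aquaporin that also carries glycerol (log2 ratio -1.63), and Gjb2, connexin 26 (-1.15), which lies near Gjb6. The other way, 4 of the 9 were above 0, Aqp1 (0.70) and Slc1a5 (0.64) the most. In the chronic phase 1 was at least 2-fold lower and 2 higher, against 6.33% and 2.27%. The 2 higher were Aqp1 (8.71 against 28.7 FPKM in SD and AN cord) and Slc1a5 (8.34 against 16.8). Gjb2 was at 59.5, 26.9, 81.2 and 148 FPKM in acute SD, acute AN, chronic SD and chronic AN cord, the same order of groups as Gjb6. All 10 intermediate filament genes were found. Gfap was 1 of 5 that were at least 2-fold lower in acute AN cord, against 11.4% of all genes. The other 4 are neuronal: Nefl (-4.56), Nefm (-4.37), Prph (-4.29) and Ina (-3.88). These 4, like 6 of the 9 connexin, transporter and aquaporin genes, carry symbols supplied by the study. It supplied them for genes it called changed in the acute phase, so both counts of lower genes lean towards change.

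**Figure D4:**
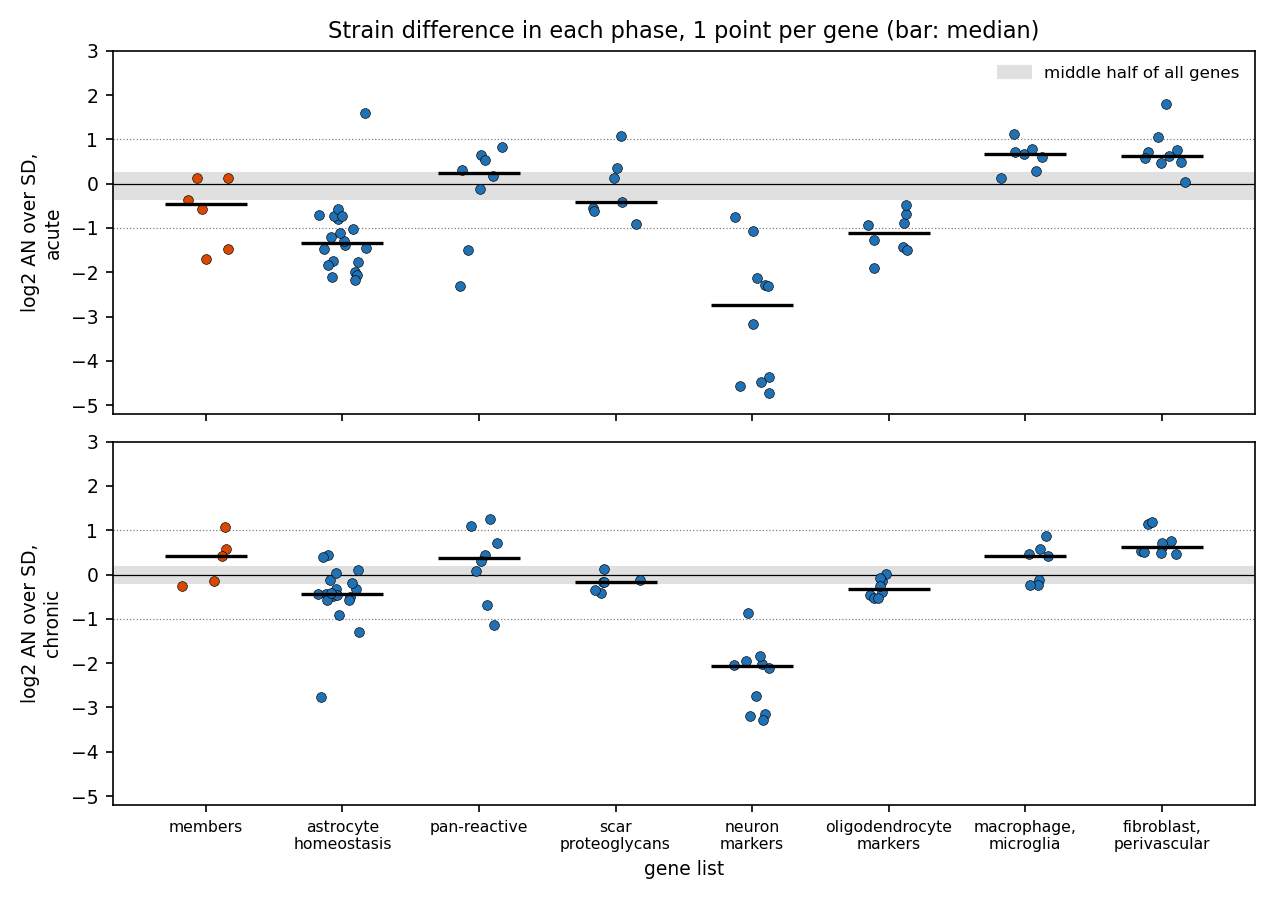
The log2 ratio of AN to SD for the members and 7 gene lists in the acute (top) and chronic (bottom) phase, 1 point per gene with the list median as a bar and the quartiles of all genes shaded. The neuron list lies lowest in both phases, and the astrocyte homeostasis list lies lower in the acute than in the chronic phase.

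Markers of other cell types also differed between the strains. Over all genes, 11.4% were at least 2-fold lower in AN cord acutely and 6.33% chronically. All 10 neuron, 7 of 8 oligodendrocyte and 4 of 6 Schwann cell markers found carry symbols that the study supplied. Those belong to genes it called changed in the acute phase, so counts of lower genes lean towards change. Neuron markers were lower in AN cord, with 9 of 10 at least 2-fold lower in each phase and summed levels of 839.5, 112, 816 and 219 FPKM in acute SD, acute AN, chronic SD and chronic AN cord. Oligodendrocyte markers were lower in the acute phase, with 4 of 8 at least 2-fold lower (summed level 2166 against 1041 FPKM) and 0 of 8 in the chronic phase. With every name found anew without the supplied symbols, 7 of 8 neuron markers were at least 2-fold lower in each phase. Of the oligodendrocyte markers, 3 of 7 were in the acute phase. Schwann cell markers were also lower in the acute phase, with a median of -0.85 over 6 genes, and had a median of 0.40 in the chronic phase. Ependymal markers were too low to read in the acute phase: of the 3 with a ratio, Tmem212 and Dnah5 passed the minimum only through SD cord, at little over 1 FPKM, and the acute median of -1.99 was -0.80 with a pseudocount of 1 FPKM. In the chronic phase all 3 were at least 2-fold lower in AN cord (median -1.34) but 1 with that pseudocount, with Rsph1 at 11.1 and 4.39 FPKM in SD and AN rats.

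Fibroblast markers had log2 ratios above 0 in both phases and macrophage markers in the acute phase, mostly by less than 2-fold. Endothelial markers were mixed acutely, and all 3 found were above 0 in the chronic phase. Over all genes, 2.07% were at least 2-fold higher in AN cord acutely and 2.27% chronically. The 7 macrophage and microglia markers found of 12 were all above 0 in log2 ratio in the acute phase, from 0.13 to 1.12, with 1 at least 2-fold higher and summed levels of 6583 and 9941 FPKM. In the chronic phase 4 of them were above 0 and 3 below (Csf1r at -0.12, Ctss at -0.23 and Cx3cr1 at -0.24). The 9 fibroblast and perivascular markers were above 0 in both phases, with a median of 0.62 and 2 at least 2-fold higher in each. Acutely the lowest was Dcn at 0.03, and with the FPKM of the groups scaled to equal totals 1 fibroblast and 0 macrophage markers were at least 2-fold higher. The 3 endothelial markers found of 8 had medians of -0.11 and 0.21. None of these markers was listed at 0 in any group. The share of each cell type in the segment was not measured, and its part in the values of Slc1a2, Gfap and the homeostasis genes was not tested.

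Genes with the most similar profile over the 4 groups were sought among 3262 genes named without use of gene order. For the mean of the 3 identity members they were Nipal2, Nqo1, Aox1, C1ql1 and Mmd2, with root-mean-square differences of 0.026 to 0.076 in log2 FPKM. The 3 members differed from each other, with acute log2 ratios of -1.69 (Slc1a2), 0.12 (Gja1) and -0.36 (Gjb6). Closeness to their mean is therefore not closeness to each of them. C1ql1, which lies next to Gfap in the tables, was at 79.5, 50.4, 133 and 147 FPKM in acute SD, acute AN, chronic SD and chronic AN cord. For Vim they were Slx4ip, Ror1, Cntrob, Plekhg2 and Trmt6, at 0.016 to 0.053. For Lcn2 they were Tef, Egflam, Pou3f1, C1qtnf2 and Deptor, and at 0.2 to 0.22 none came as close as for the other profiles. With 4 points, such closeness is a description.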

How the data were processed

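Polyadenylated RNA from the lesion segment of 12 rats was sequenced as paired-end reads. The authors removed adapters with CutAdapt, mapped reads to RN4 with TopHat (version 1.5.0), assembled transcripts with quartile-normalized Cufflinks (version 0.0.6), pooled the assemblies of a time point with CuffMerge and contrasted SD with AN rats by CuffDiff. The deposited FPKM values are 1 per group of 3 rats in each of 2 tables, normalized separately. Fold changes, test statistics, p-values and Q values of the authors' own comparison, also in these tables, were not used. Columns of per-sample values left out numbered 0.

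Ratios were computed with Python 3.11.15, pandas 2.3.3 and NumPy 2.4.6, as the log2 ratio of AN to SD FPKM with nothing added, for genes with at least 1 FPKM in 1 strain and above 0 in both. An FPKM of 0 with a status of failed estimation was treated as missing. Counts used a 2-fold difference. No test was made, since the FPKM columns hold 1 value per group. The calculation was checked on simulated data.

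Of 17423 rows, 1803 were named from symbols in a supplementary table of the study, 2711 from RGD synonyms in the GRCr8 gene table and 7576 by gene order and gene length between named rows, 12090 in all. Of 2250 names held out, 1561 were given again and 1519 (97.3%) were right. This is not an independent estimate: several versions of the procedure were compared on this same check, and the widest length ratio, 1.5, was preferred to a narrower one after values of the gene lists had been seen, because it named more list genes. Every one of the 1989 supplementary rows read was marked as changed in the acute phase, so names taken from it favour such genes.

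Named genes were the members, for each list and phase the 3 genes with the largest absolute log2 ratio among those at 1 FPKM or more in both strains (the text gives a selection), and the 5 most similar directly named genes per profile. Acan, Dio2, Dcn, Tgm1, Gjb2, Ina, FAM187A and some cell type markers were named after their values were seen, and 1 gene that the rule would name is not reported here. The members and lists were chosen with earlier results of these data known. The alternatives tried were other pseudocounts, filters, folds, scalings and ways of naming.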

Additional observations from a re-analysis of the deposited data

How the results depend on the processing

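No paired analysis was possible because each group is 1 value, and for the same reason no replicate could be left out. With no spread between rats, a log2 value was counted as unchanged when it moved by less than 1.5-fold, and a count when it moved by at most 1.5 times. By this measure 176 of the main results under an alternative were unchanged and 20 moved, and the members' counts and medians moved only when names were restricted. Of the values for single genes, single lists and other ratios, 828 were unchanged, 83 moved and 1 reversed. With directly named genes (Slc1a2 and Gfap alone) the members' median log2 ratio was -1.58 at 1 week and -0.27 at 8 weeks, and the number at least 2-fold higher in chronic AN cord was 0. That restriction also gave 0 homeostasis genes higher in the acute phase, an acute pan-reactive median of -0.43 and 1 pan-reactive gene higher in the chronic phase. A pseudocount of 1, and likewise a minimum of 5 FPKM, gave 0 homeostasis genes higher in the acute phase and 0 pan-reactive genes lower in the chronic phase. At 1.5-fold, 2 pan-reactive genes were higher in the acute phase and 2 lower in the chronic phase. Naming without the supplementary table, an alternative chosen after seeing the data, gave 1 homeostasis gene lower in the chronic phase and 1 pan-reactive gene lower in the acute phase. Leaving out the genes named from that table, also chosen after seeing the data, gave 2 homeostasis genes lower in the acute phase (median -0.72) and 0 in the chronic phase, with 0 pan-reactive genes lower in either phase and 1 higher in the chronic phase. In that setting the acute median of the intermediate filament genes was 0.15, against -1.21 with all names, because the neuronal filament genes were left out.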

Other observations

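Ratios of Slc1a2 to other members were examined after their values had been seen. Slc1a2 stood at 0.283 times the Gja1 level in acute SD, 0.0805 times in acute AN, 0.311 times in chronic SD and 0.286 times in chronic AN cord, so the acute AN group was apart from the other 3. Against Gfap the ratio was 0.015 in acute SD, 0.013 in acute AN and 0.013 in chronic AN cord. With 1 value per group, neither comparison has a test. The name of the Gja1 row rests on symbols supplied by the study.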
